A study of Mus musculus with 6 samples.

Results

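The genes described here are 37 genes of the unfolded protein response and the chaperones of the endoplasmic reticulum (ER), listed by name and divided by role into 15 ER chaperones and folding factors, 10 genes of ER-associated degradation (ERAD) and the translocon, 4 genes of the sensors and XBP1, and 8 genes of the PERK and ATF4 arm. They are 37 of 13222 genes tested. All 37 were represented by at least 1 probe set annotated to exactly 1 gene, all 37 passed the filter on low signal, and each was read from its brightest probe set, by the mean of the 6 arrays. The lowest of these means was 6.47 on the log2 scale of the deposited values, against array 40th percentiles of 4.90 to 4.94.

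The unfolded protein response is the programme by which a cell matches its folding capacity in the ER to the load of new secreted and membrane proteins. Its sensors IRE1 (gene Ern1), ATF6 and PERK (gene Eif2ak3) sit in the ER membrane. IRE1 splices the Xbp1 transcript and ATF6 is cleaved in the Golgi, and the transcription factors so released raise ER chaperones, folding enzymes and the machinery of ERAD. PERK phosphorylates the translation factor eIF2 alpha, which slows protein synthesis in general and favours translation of ATF4, a factor that raises genes of amino acid supply, redox balance and stress adaptation. Kinases other than PERK also feed into ATF4, which gives this arm the wider name of integrated stress response. In skin, keratinocytes use these pathways while they differentiate and secrete barrier components, and many tumours run them at a raised level.

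The samples were tumour epithelial cells (TECs) sorted from benign, chemically induced skin papillomas of mice. Of the 6 Affymetrix Mouse Genome arrays, 3 came from Sox2cKO mice (K14CREER:SOX2fl/fl, in which tamoxifen switches on a Cre recombinase driven by the keratin 14 promoter and so deletes floxed Sox2 in keratin 14-expressing epithelium) and 3 came from control mice (CTRL), whose alleles the labels do not give. Both groups had received tamoxifen for 1 week, and ages were not given. Cells were gated as Epcam+ and alpha6 integrin+ after exclusion of CD45, CD31 and CD140a, and the design text counts 3 biological experiments but gives no pooling of animals or tumours. The arrays set papilloma cells with and without Sox2 side by side, to find genes that differ when Sox2, a factor that keeps progenitor cells undifferentiated, is deleted.

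Sox2 itself read 4.07, 4.63 and 3.23 in Sox2cKO arrays, against 7.19, 8.31 and 8.18 in CTRL arrays, and its adjusted p of 0.316 in limma was the lowest of all genes. The epithelial markers Krt14 and Krt5 read 13.3 or higher on every array. Of 7 basal keratinocyte markers 3 had a mean difference above 0 and 4 below, with 0 past the adjusted threshold, and Krt15 differed by -0.56 with groups apart. Epcam, a marker of the sort gate, read 11.24, 10.72 and 10.57 in Sox2cKO arrays, against 11.07, 11.42 and 11.43 in CTRL arrays, a difference of -0.46 with groups that overlapped. Itga6, the gene of the other gate marker, differed by 0.09. Of 5 markers of the epithelial sort, these among them, 2 had a mean difference above 0 and 3 below, with 0 past the adjusted threshold. Of the markers of excluded cells, those of fibroblasts and pericytes were detected for 13 of 14 measured genes, and their score, the mean deviation of the genes from their own means over the 6 arrays, was 0.03, 0.17 and 1.45 in Sox2cKO replicates 1 to 3, against -0.29, -0.27 and -1.09 in CTRL replicates 1 to 3. The summed linear signal of these markers was 8916 to 19988 in Sox2cKO arrays and 3906 to 7411 in CTRL arrays. Of 5 Langerhans cell markers 1 was higher and 4 lower in Sox2cKO arrays, with a median difference of -1.09. The sex-linked signal was uneven. Xist, which coats the inactive X chromosome, read 6.08 to 7.54 in Sox2cKO arrays, against 7.30, 12.03 and 11.85 in CTRL replicates 1, 2 and 3, so that CTRL replicate 1 is the only control with the pattern of the Sox2cKO arrays. In bulk RNA fewer cells of a type and less RNA per cell cannot be told apart.

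The promoters of some members carry the sequence elements by which these arms are known. The members were listed and grouped by these arms, so the matches describe the list and are no independent division of it. RefSeq promoter windows of build GRCm38.p6, which run from 250 bases before to 50 bases after the start of transcription, were matched for 33 of the 37 genes. The ER stress response element (ERSE, searched as CCAAT, any 9 bases and CCACG), to which ATF6 binds together with the CCAAT factor NF-Y, was found on either strand in the windows of 9 members. It was found in 0.119% of all 32851 windows and in 0.133% of the 13528 windows of genes tested here, which is 18 windows. The shorter ERSE-II (ATTGG, any base and CCACG) was found in 2 further members and in 0.0365% of all windows. No match in a member overlapped a match to another motif, and where the element lies on the opposite strand its reverse complement is printed. The capitals mark the fixed letters of each element within a stretch of its promoter, in the direction of the gene.
Hspa5 (ERSE, chr2:34772020-34772048, plus strand): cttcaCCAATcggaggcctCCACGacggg
Hsp90b1 (ERSE, chr10:86705633-86705661, minus strand): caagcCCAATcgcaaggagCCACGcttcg
Hsp90b1 (second ERSE, chr10:86705528-86705556, minus strand): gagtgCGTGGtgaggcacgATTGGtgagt
Dnajc3 (ERSE, chr14:118937822-118937850, plus strand): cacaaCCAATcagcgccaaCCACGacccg
Pdia6 (ERSE, chr12:17266486-17266514, plus strand): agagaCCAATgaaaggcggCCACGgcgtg
Calr (ERSE, chr8:84847070-84847098, minus strand): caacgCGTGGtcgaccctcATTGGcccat
Canx (ERSE, chr11:50325795-50325823, minus strand): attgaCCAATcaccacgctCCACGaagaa
Creld2 (ERSE, chr15:88819515-88819543, plus strand): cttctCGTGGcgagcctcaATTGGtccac
Syvn1 (ERSE, chr19:6046527-6046555, plus strand): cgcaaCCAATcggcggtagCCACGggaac
Derl3 (ERSE, chr10:75893237-75893265, plus strand): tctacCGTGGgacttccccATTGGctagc
Dnajb11 (ERSE-II, chr16:22857847-22857867, plus strand): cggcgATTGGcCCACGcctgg
Herpud1 (ERSE-II, chr8:94386372-94386392, plus strand): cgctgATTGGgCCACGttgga

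Thus 8 of the 13 chaperone and folding genes with a window and 3 of the 9 ERAD and translocon genes with a window held one of the ERSE elements. Of the sensor, XBP1 and PERK/ATF4 genes with a window, 0 did. Hyou1, Manf, Derl1 and Atf6 had no window and were not searched. In Hspa5, the gene of the lumenal HSP70 chaperone BiP and the textbook target of ATF6, the element runs from 65 to 47 bases before the start. The 250 bases before the start of Hspa5 (chr2:34771840-34772089, plus strand) hold 4 CCAAT boxes, counted on both strands. The capitals mark the one within the exact match to the searched ERSE letters, and inexact copies were not searched for.
Hspa5 upstream: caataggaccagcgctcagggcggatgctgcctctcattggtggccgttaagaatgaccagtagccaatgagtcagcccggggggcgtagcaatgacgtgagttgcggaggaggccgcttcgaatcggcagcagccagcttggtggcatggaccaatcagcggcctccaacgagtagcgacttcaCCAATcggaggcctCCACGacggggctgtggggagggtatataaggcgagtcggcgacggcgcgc

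The core of the C/EBP-ATF response element (CARE, searched as TGATGNAA on either strand), which ATF4 binds with a C/EBP partner, was found in the windows of Asns, Trib3, Chac1 and Herpud1, and in 3.97% of all windows and 2.31% of those of genes tested. The capitals again mark the fixed letters, read in the direction of the gene.
Asns (chr6:7693220-7693237, minus strand): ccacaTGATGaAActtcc
Trib3 (chr2:152344034-152344051, minus strand): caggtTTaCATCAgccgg
Chac1 (chr2:119351044-119351061, plus strand): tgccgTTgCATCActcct
Herpud1 (chr8:94386312-94386329, plus strand): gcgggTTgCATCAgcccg
Of the 8 PERK/ATF4 genes, all of which had a window, 3 therefore held a CARE core, and Herpud1 was the member with both kinds of element. The XBP1-associated element UPRE (TGACGTGG) was found in 0 member windows and in 0.676% of all windows. The palindromic CRE (TGACGTCA) was found in the window of Ppp1r15a and in 1.79% of all windows. A match is a description of letters in the window, and no match says only that these letters are not in it.

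Against this layout, the signal differed little between the groups. In the limma test over all genes 0 of the 37 members had an adjusted p under 0.05, where 0% of all genes tested did, and no member had an adjusted p below 0.999. Before adjustment 2 members, Dnajb9 and Trib3, had a p under 0.05, both with higher values in Sox2cKO cells, where 2.68% of all genes did, 1.38% higher and 1.29% lower. The mean difference was above 0 for 34 of the 37 members, against 50.6% of all genes, with a median of 0.11 on the log2 scale, against 0.0027 for all genes. The differences were small, with 26 of 37 under 0.2 in size and only those of Dnajb9 and Chac1 above 0.5. The standard error of a member's difference had a median of 0.15 and ran from 0.11 to 0.41. The groups did not overlap for 4 members, Dnajb9, Calr, Syvn1 and Trib3, with each Sox2cKO array above each CTRL array, where 2.73% of all genes were so placed, 3.12% were placed the other way and 5.85% were apart in either direction. With a single array left out, the number of the 37 members above 0 ran from 24, without Sox2cKO replicate 3, to 34, without CTRL replicate 3. The direction of the median did not hold for every role group when a single array was left out, as given with each group below.

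**Figure D1:**
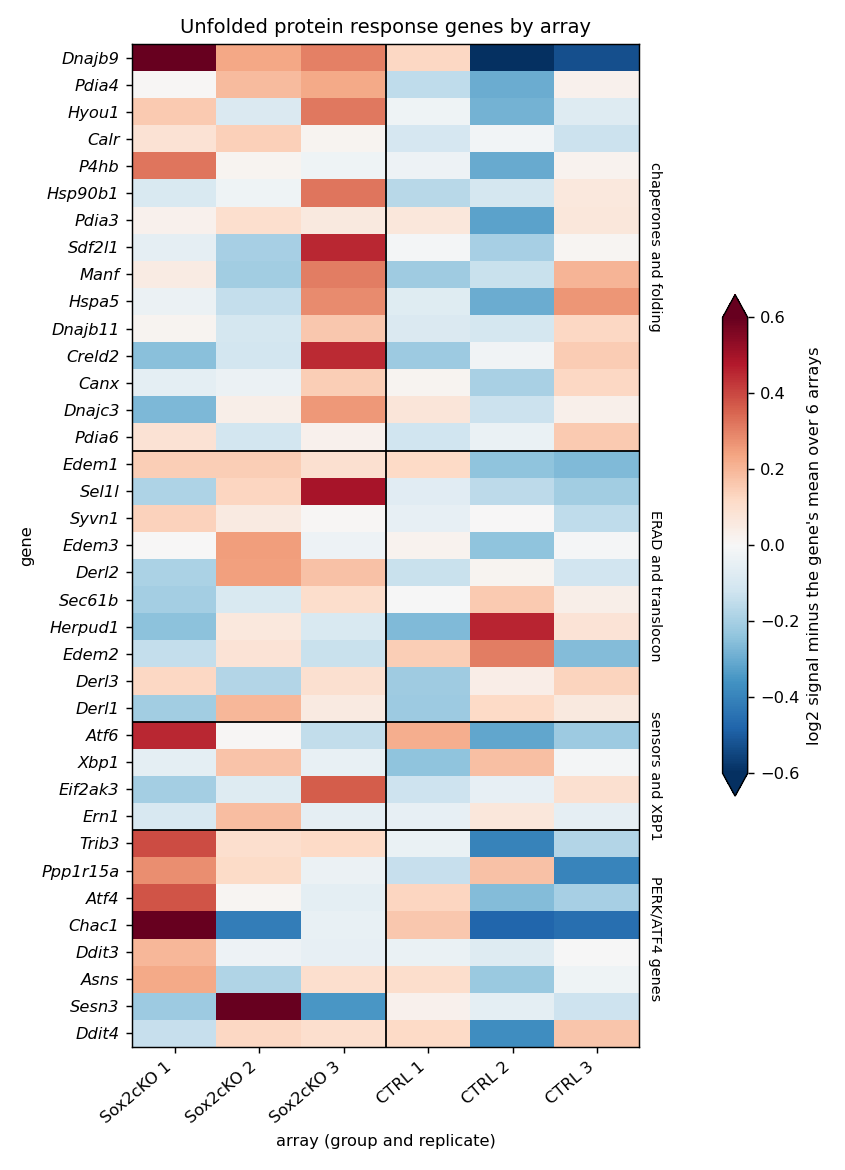
Signal of the 37 genes on each array, as the log2 value minus the gene's own mean over the 6 arrays (red above, blue below, colours saturate at 0.6 either way), with 3 Sox2cKO arrays left of 3 CTRL arrays and genes in the order of their unadjusted p within each role group. Dnajb9 and Trib3 are red in the Sox2cKO columns, while most rows change colour between replicates of a group.

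The chaperones and folding factors read slightly higher in Sox2cKO cells on average. All 15 mean differences were above 0, with a median of 0.12 and a range of 0.0020 to 0.80, and 0 of 15 passed the adjusted threshold. The scores of the groups overlapped. The score was 0.04, -0.02 and 0.22 in Sox2cKO replicates 1 to 3, against -0.06, -0.22 and 0.03 in CTRL replicates 1 to 3, so Sox2cKO replicate 3 was the highest and CTRL replicate 2 the lowest array. Without Sox2cKO replicate 3, the array with the highest fibroblast marker score, the median difference of the 15 genes was -0.0099, and the part of fibroblasts in the chaperone values was not tested. Without CTRL replicate 2 it was 0.06, and without CTRL replicate 3 it was 0.19.

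Dnajb9, the gene of the BiP co-chaperone ERdj4 and a target of XBP1, had the largest difference of all 37 members. It read 10.86, 10.43 and 10.50 in Sox2cKO arrays, against 10.32, 9.40 and 9.67 in CTRL arrays. The groups did not overlap, but the gap between CTRL replicate 1 and the lowest Sox2cKO array was narrow. The mean was 10.60 ± 0.23 in Sox2cKO and 9.79 ± 0.47 in CTRL cells (SD, n = 3 each), a log2 difference of 0.80 (standard error 0.25, 95% interval 0.22 to 1.39), or 1.74-fold. Its unadjusted p was the smallest of the members at 0.014, and its adjusted p was 0.999. Against CTRL replicate 1 alone, which shares the sex-linked pattern of the Sox2cKO arrays, the difference was 0.28. Only 1 probe set represented the gene.

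Pdia4, which encodes an ER disulfide isomerase, read 9.18, 9.36 and 9.40 in Sox2cKO arrays, against 9.02, 8.88 and 9.20 in CTRL arrays. The groups met at CTRL replicate 3 and Sox2cKO replicate 1, and the difference was 0.28 (standard error 0.13). Its other probe set past the filter, a dim one, differed by -0.06. Hyou1, the large lumenal chaperone that acts as nucleotide exchange factor for BiP, read 9.45, 9.20 and 9.61 in Sox2cKO arrays, against 9.27, 9.01 and 9.22 in CTRL arrays. Its difference was 0.26 (standard error 0.15), and its second probe set past the filter differed by 0.46.

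Calr encodes calreticulin, the soluble lectin chaperone of new glycoproteins. It read 12.07, 12.12 and 12.00 in Sox2cKO arrays, against 11.88, 11.96 and 11.85 in CTRL arrays. Its groups did not overlap, and they did not overlap in its other 2 probe sets either. The difference was 0.16 (standard error 0.11), or 1.12-fold, and the SD within a group was 0.06 in Sox2cKO and 0.06 in CTRL arrays. The other probe sets differed by 0.16 and 0.22.

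Hspa5 read 12.67, 12.56 and 12.99 in Sox2cKO arrays, against 12.63, 12.41 and 12.97 in CTRL arrays. The groups overlapped throughout, and in each group replicate 3 was the highest array. The difference was 0.07, with a 95% interval of -0.37 to 0.51 that includes 0, so these arrays do not fix its size or direction. That interval is from the fit without a replicate block. Taken by replicate number, the arrays differed by 0.04, 0.15 and 0.02 for replicates 1, 2 and 3. Hsp90b1, the lumenal HSP90 chaperone GRP94, differed by 0.14. The disulfide isomerase genes P4hb, Pdia3 and Pdia6 differed by 0.21, 0.12 and 0.0020. Canx, the membrane-bound partner of calreticulin, differed by 0.04, with other probe sets at 0.35 and -0.03. Dnajc3, an inhibitor of PERK and co-chaperone of BiP, differed by 0.02, and Dnajb11, a BiP co-chaperone, by 0.05. The secreted or lumenal stress proteins Manf and Creld2 differed by 0.10 and 0.06, and Sdf2l1, a lumenal partner of DNAJB11, by 0.13. All of these overlapped between groups.

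**Figure D2:**
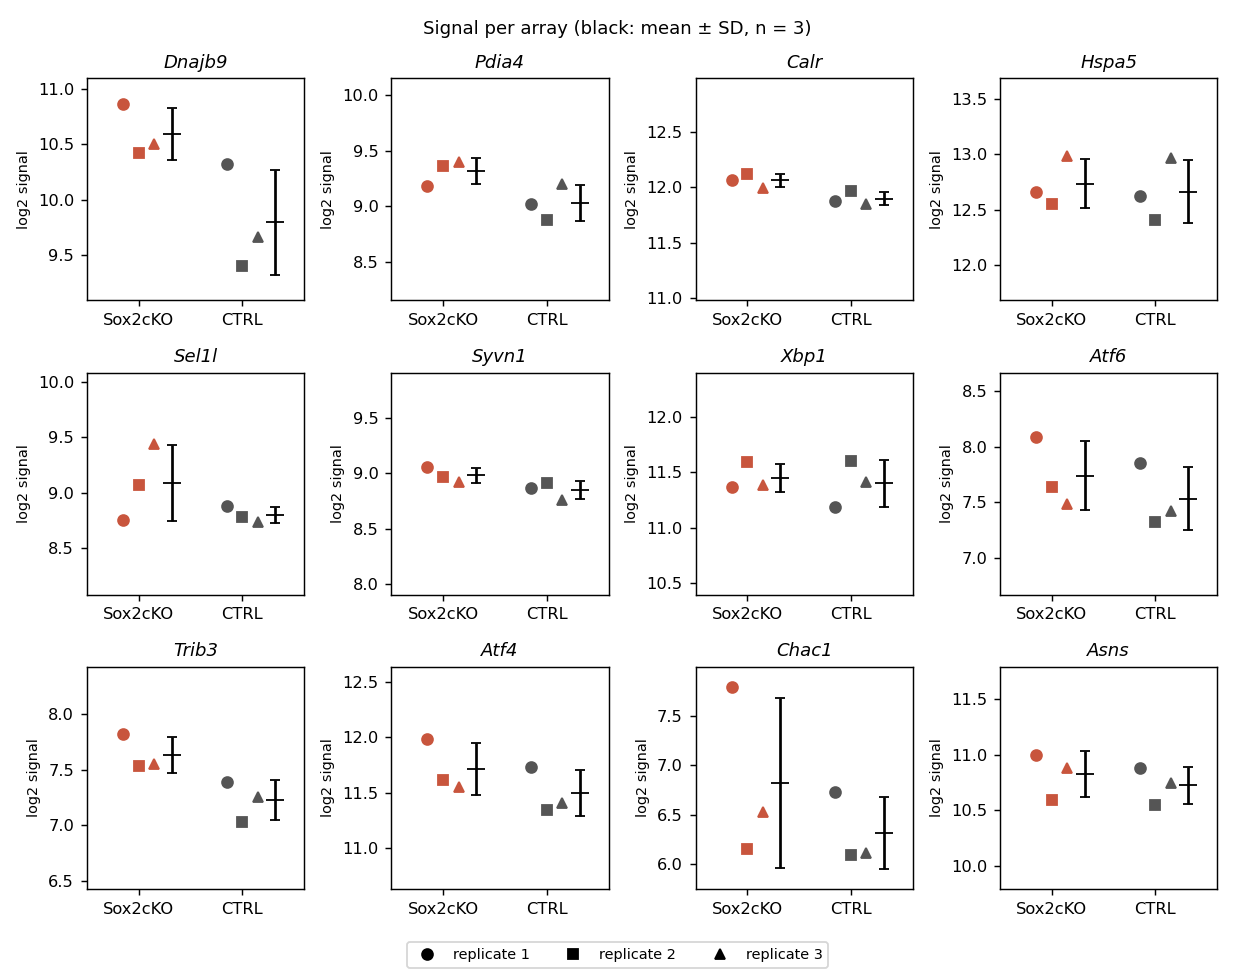
Log2 signal of 12 members on each array, Sox2cKO left of CTRL in each panel, with replicates 1, 2 and 3 as circles, squares and triangles and the mean ± SD (n = 3) in black. The vertical span differs for Chac1. Dnajb9, Calr, Syvn1 and Trib3 show no overlap between groups. In Dnajb9, Atf6, Trib3, Atf4, Chac1 and Asns the circles of replicate 1 are the highest points of both groups.

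The ERAD and translocon genes were split. The mean difference was above 0 for 7 of 10 and below 0 for Herpud1, Edem2 and Sec61b, with a median of 0.08, and 0 of 10 passed the adjusted threshold. The score was -0.08, 0.09 and 0.08 in Sox2cKO replicates 1 to 3, against -0.07, 0.05 and -0.07 in CTRL replicates 1 to 3. The median was 0.03 without CTRL replicate 1.

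Sel1l, the scaffold of the HRD1 ubiquitin ligase that retrotranslocates misfolded proteins, read 8.76, 9.07 and 9.44 in Sox2cKO arrays, against 8.88, 8.79 and 8.74 in CTRL arrays. Sox2cKO replicate 1 lay within the control range, and replicates 2 and 3 above it. The difference was 0.29 (standard error 0.18), and the other 4 probe sets of the gene differed the same way, by 0.18 to 0.43. Syvn1, which encodes HRD1 itself, read 9.05, 8.97 and 8.92 in Sox2cKO arrays, against 8.87, 8.92 and 8.76 in CTRL arrays. Its groups were apart by a hair, with a difference of 0.13 (standard error 0.11), and its second probe set differed by 0.08.

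Edem1, a lectin that delivers mannose-trimmed glycoproteins to ERAD and a target of XBP1, read 9.64, 9.64 and 9.59 in Sox2cKO arrays, against 9.61, 9.25 and 9.22 in CTRL arrays. CTRL replicate 1 lay among the Sox2cKO arrays and the other controls below them, and the difference was 0.26 (standard error 0.14). The second Edem1 probe set differed by -0.11, so its probe sets disagreed. Of its relatives, Edem3 differed by 0.15 and Edem2 by -0.13. The derlin genes Derl1, Derl2 and Derl3, whose products form part of the retrotranslocation channel, differed by 0.03, 0.15 and 0.03. Herpud1, an ER membrane protein that organises the HRD1 complex, differed by -0.18 (standard error 0.20) and was highest in CTRL replicate 2, at 9.82. Sec61b, a subunit of the translocon through which proteins enter the ER, differed by -0.12.

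The sensors and XBP1 overlapped between groups gene by gene, although the score of the 4 genes was 0.02, 0.07 and 0.03 in Sox2cKO replicates 1 to 3, against -0.05, -0.03 and -0.05 in CTRL replicates 1 to 3. Atf6 read 8.09, 7.64 and 7.49 in Sox2cKO arrays, against 7.85, 7.32 and 7.42 in CTRL arrays, a difference of 0.21 (95% interval -0.28 to 0.69) with replicate 1 highest in each group. Against CTRL replicate 1 alone the sign of the Atf6 difference turned, to -0.12. Xbp1 read 11.37, 11.59 and 11.38 in Sox2cKO arrays, against 11.18, 11.61 and 11.41 in CTRL arrays, a difference of 0.05 (-0.30 to 0.40), and its other 3 probe sets differed by 0.05, 0.05 and 0.16. Splicing of Xbp1 by IRE1 was not analysed.

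Ern1 read 8.09, 8.38 and 8.14 in Sox2cKO arrays, against 8.14, 8.26 and 8.13 in CTRL arrays, a difference of 0.03 (-0.27 to 0.32). Its other probe sets past the filter differed by -0.25 and 0.04. Eif2ak3 read 7.98, 8.10 and 8.54 in Sox2cKO arrays, against 8.06, 8.13 and 8.28 in CTRL arrays, a difference of 0.05 (-0.35 to 0.45). Of the 4 genes, 0 passed the adjusted threshold, and the median difference was 0.05. It was 0.0051 without CTRL replicate 1, and 0.08 without Sox2cKO replicate 1, CTRL replicate 2 or CTRL replicate 3.

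**Figure D3:**
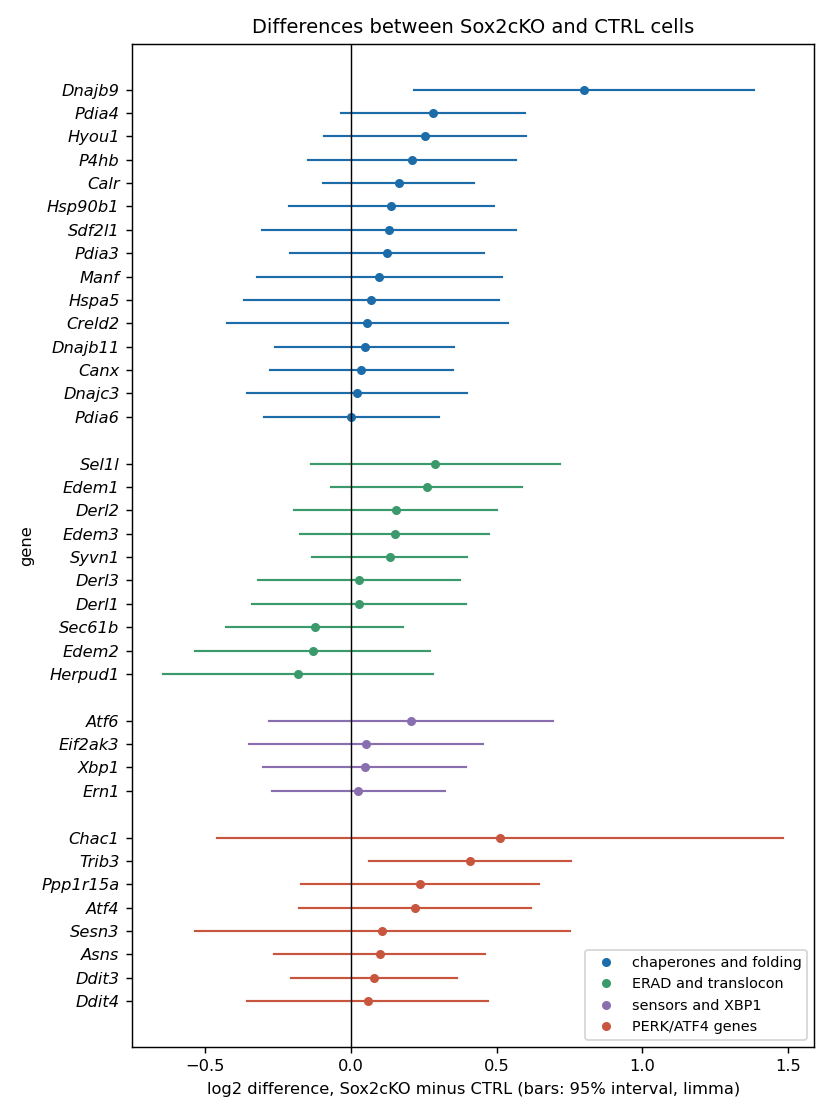
Log2 difference, Sox2cKO minus CTRL, of each of the 37 genes with its 95% interval from limma (3 arrays per group), ordered by size within the role groups. The intervals of Dnajb9 (0.22 to 1.39) and Trib3 (0.06 to 0.75) lie above 0 before adjustment for the number of genes tested, and the other 35 cross 0.

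The PERK and ATF4 genes had the largest median difference of the role groups, 0.16, and all 8 mean differences were above 0, from 0.06 to 0.51, with 0 of 8 past the adjusted threshold. The score was 0.29, 0.06 and -0.03 in Sox2cKO replicates 1 to 3, against 0.04, -0.21 and -0.15 in CTRL replicates 1 to 3. Replicate 1 was the highest array of each group, and CTRL replicate 1 read near Sox2cKO replicate 2. The median was 0.31 without Sox2cKO replicate 3 and 0.11 without Sox2cKO replicate 1. Against CTRL replicate 1 alone it was 0.05, with Atf4 at -0.02 and Asns at -0.05.

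Trib3 encodes a pseudokinase that is induced by ATF4 and CHOP and that restrains ATF4 in turn. It read 7.82, 7.53 and 7.55 in Sox2cKO arrays, against 7.39, 7.03 and 7.26 in CTRL arrays. Every Sox2cKO array lay above every CTRL array, and the same held in its second probe set, which differed by 0.54. The mean was 7.64 ± 0.16 in Sox2cKO and 7.23 ± 0.18 in CTRL cells (SD, n = 3 each), a log2 difference of 0.41 (standard error 0.15), or 1.33-fold, with an unadjusted p of 0.0267 and an adjusted p of 0.999. Against CTRL replicate 1 alone the difference was 0.24.

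Atf4 read 11.98, 11.62 and 11.55 in Sox2cKO arrays, against 11.73, 11.35 and 11.40 in CTRL arrays. Its difference was 0.22 (standard error 0.17), the groups overlapped at CTRL replicate 1, and the activity of this factor is set mainly by translation, which arrays do not read. Chac1, a glutathione-degrading enzyme and a sensitive ATF4 target, was named after its values were seen because of its spread. It read 7.80, 6.15 and 6.52 in Sox2cKO arrays, against 6.73, 6.09 and 6.11 in CTRL arrays. The difference of 0.51 (standard error 0.41) was carried by replicate 1, which was the highest array in each group.

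Ppp1r15a, the GADD34 subunit that directs dephosphorylation of eIF2 alpha, read 10.18, 10.02 and 9.87 in Sox2cKO arrays, against 9.77, 10.08 and 9.51 in CTRL arrays, a difference of 0.24 (standard error 0.17). The groups overlapped at CTRL replicate 2. Ddit3, the gene of the factor CHOP, read 8.16, 7.93 and 7.91 in Sox2cKO arrays, against 7.93, 7.89 and 7.96 in CTRL arrays, a difference of 0.08 (95% interval -0.21 to 0.36). Only Sox2cKO replicate 1 stood above the others.

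Asns, which makes asparagine, read 11.00, 10.59 and 10.88 in Sox2cKO arrays, against 10.88, 10.55 and 10.75 in CTRL arrays, a difference of 0.10 (-0.26 to 0.46). Again replicate 1 was the highest and replicate 2 the lowest array of each group. Ddit4, an inhibitor of mTORC1 that also answers to hypoxia and glucocorticoids, differed by 0.06. Sesn3, a sestrin best known as a FOXO target, differed by 0.11 and was highest in Sox2cKO replicate 2, at 8.29, against 7.21 to 7.59 elsewhere.

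The role groups also differed in which replicate read highest. Of the 15 chaperones and folding factors, 8 were highest in replicate 3 within Sox2cKO and also within CTRL arrays, where 12.4% of all genes were. These were Hspa5, Hsp90b1, Canx, Manf, Dnajb11, Pdia4, Creld2 and Sdf2l1. Dnajb9 was instead highest in replicate 1 of both groups, and Calr in replicate 2 of both. Of the 8 PERK/ATF4 genes, 4 were highest in replicate 1 of both groups, namely Atf4, Asns, Trib3 and Chac1, where 11.3% of all genes were, and 0 were highest in replicate 3 of both. Of the 10 ERAD and translocon genes, 4 were highest in replicate 2 of both groups (Derl1, Derl2, Herpud1 and Edem2), where 21.5% of all genes were. Xbp1 and Ern1 were also highest in replicate 2 of both groups, Atf6 in replicate 1 and Eif2ak3 in replicate 3. This pattern was noticed in the values, and the labels do not say what a replicate number marks.

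Marker lists are set beside these scores. The fibroblast marker score was highest in Sox2cKO replicate 3, as was the chaperone score, and it was higher in each Sox2cKO array than in each CTRL array. Among controls CTRL replicate 3 had the highest chaperone score (0.03) and the lowest fibroblast score (-1.09). The part of fibroblasts in the chaperone values was not tested. The score of 7 suprabasal keratinocyte markers was 0.48, 0.44 and -0.37 in Sox2cKO replicates 1 to 3, against 0.38, -0.53 and -0.40 in CTRL replicates 1 to 3, and in each group it was highest in replicate 1, as was the PERK/ATF4 score. All 7 suprabasal markers had a mean difference above 0, with a median of 0.33 and 0 past the adjusted threshold, and Lor had groups apart. Against CTRL replicate 1 alone their median was -0.13. The part of suprabasal cells in the PERK/ATF4 values was not tested. Of 8 measured plasma cell markers, a secretory cell type with a strong unfolded protein response, 5 passed the filter, and their summed linear signal was 279 to 320 in Sox2cKO arrays and 242 to 295 in CTRL arrays. The part of plasma cells was not tested.

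**Figure D4:**
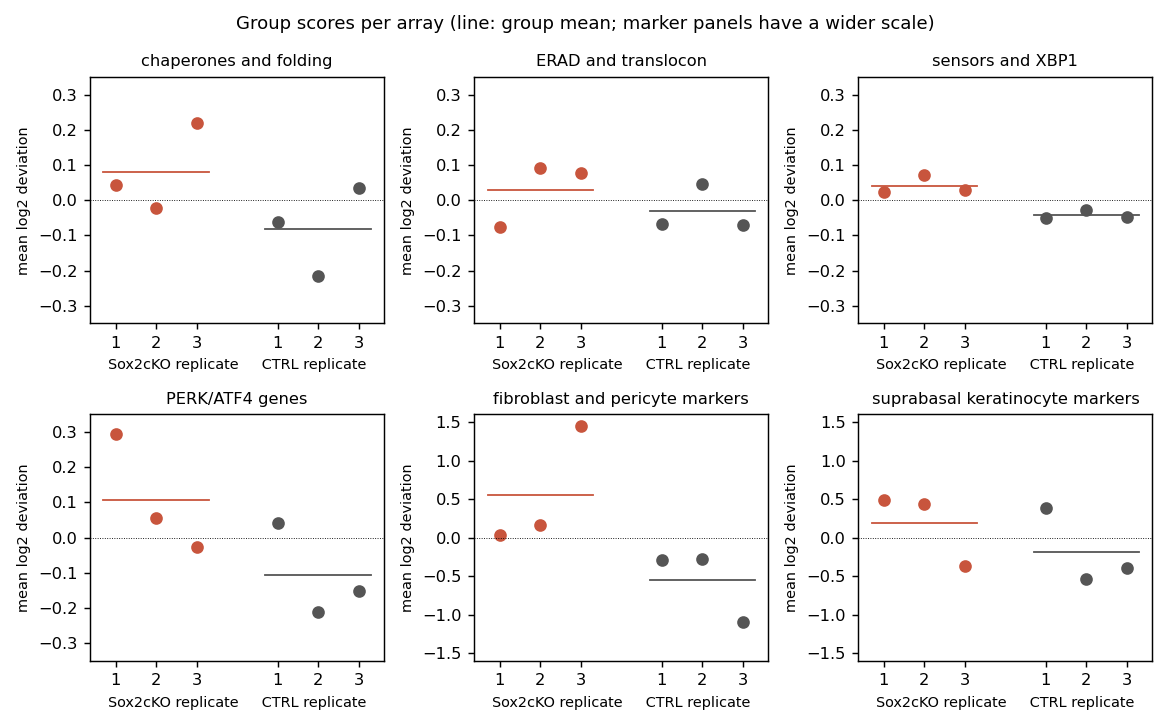
Score of each role group on each array (mean deviation of its genes from their own means over the 6 arrays, log2 scale), Sox2cKO left of CTRL, with a line at the group mean. The lower row's marker panels have a wider scale. Chaperones peak in replicate 3 of each group (0.22 in Sox2cKO, 0.03 in CTRL) and PERK/ATF4 genes in replicate 1 (0.29 in Sox2cKO, 0.04 in CTRL).

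Taking arrays of one replicate number together, 14 of the 37 members were higher in Sox2cKO than in CTRL in all 3 pairs and 0 were lower in all 3, where 12.1% of all genes were higher and 12.7% lower in all 3. Pair by pair, 23, 26 and 26 of 37 members were higher in Sox2cKO for replicates 1, 2 and 3, with median differences of 0.08, 0.12 and 0.12. Of all 13222 genes, 5884, 6919 and 6795 were higher in these pairs, with medians of -0.03, 0.02 and 0.0086. The pair of replicate 1 is the one in which both arrays share the sex-linked pattern. Against CTRL replicate 1 alone, 29 of 37 members had a mean difference above 0, with a median of 0.12, against -0.01 for all genes. The share of all genes above 0 in that comparison was not counted.

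The differences can also be laid out by promoter element. The 11 chaperone, folding, ERAD and translocon genes with ERSE or ERSE-II had differences of -0.18 to 0.16 with a median of 0.05, and the 11 with a window and neither element had differences of -0.13 to 0.80 with a median of 0.15. The second set holds Dnajb9, Pdia4, Edem1 and Sel1l. Of the PERK/ATF4 genes, the 3 with a CARE core differed by 0.10 (Asns), 0.41 (Trib3) and 0.51 (Chac1), and the other 5 by 0.06 to 0.24. These are descriptions of small sets, with no test.

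The wider pathway was counted from further lists of its genes. Of 25 other ER folding and redox genes, 8 had a mean difference above 0 and 17 below, with a median of -0.04. Sil1, a nucleotide exchange factor of BiP, read 7.92, 7.96 and 7.73 in Sox2cKO arrays, against 8.23, 8.26 and 8.04 in CTRL arrays, a difference of -0.31 (standard error 0.13), and its groups did not overlap. Prdx4, an ER peroxiredoxin, differed by -0.37 with groups apart, and Fkbp14, an ER prolyl isomerase of collagen folding, by 0.43. Of 23 genes of ER translocation, signal peptidase and N-glycosylation, 11 were above 0 and 12 below, with a median of -0.0013, and its leading members were Sec63 (0.23), Sec11a (-0.15) and Spcs3 (0.12). Of 23 other ERAD genes, 15 were above 0 and 8 below, with a median of 0.05, led by Rnf103 (0.46), Fam8a1 (0.26) and Ngly1 (0.21). In these lists 0 genes passed the adjusted threshold.

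Regulators were mixed. Of 16 other genes of the ATF6, OASIS and IRE1 pathways, 11 were above 0 and 5 below, with a median of 0.06, led by Creb3l1 (0.37), Map3k5 (0.18, groups apart) and Mbtps1 (-0.13), the site-1 protease that cleaves ATF6. Of 16 genes of eIF2 alpha kinases, eIF2B and phosphatases, 8 were above 0 and 8 below, with a median of 0.01, led by Nck1 (0.32), the X-linked gene Eif2s3x (-0.19) and Eif2b5 (0.12). In both lists 0 genes passed the adjusted threshold.

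Other targets of ATF4 also went both ways. Of 18 further stress targets of ATF4 and CHOP, 10 were above 0 and 8 below, with a median of 0.01, led by Jdp2 (-0.39, groups apart), Gadd45a (-0.35) and Stc2 (-0.24). Of 26 ATF4 targets of amino acid supply and tRNA charging, 16 were above 0 and 10 below, with a median of 0.04. Slc1a4, a transporter of small neutral amino acids, read 6.88, 6.74 and 7.07 in Sox2cKO arrays, against 7.42, 7.40 and 7.54 in CTRL arrays. Its difference was -0.56 (standard error 0.13) with groups apart, the smallest unadjusted p of the further lists (0.00339), and an adjusted p of 0.999. The asparaginyl-tRNA synthetase gene Nars differed by 0.28 with groups apart, and the cationic amino acid transporter gene Slc7a1 by -0.21. In these 2 lists 0 genes passed the adjusted threshold.

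**Figure D5:**
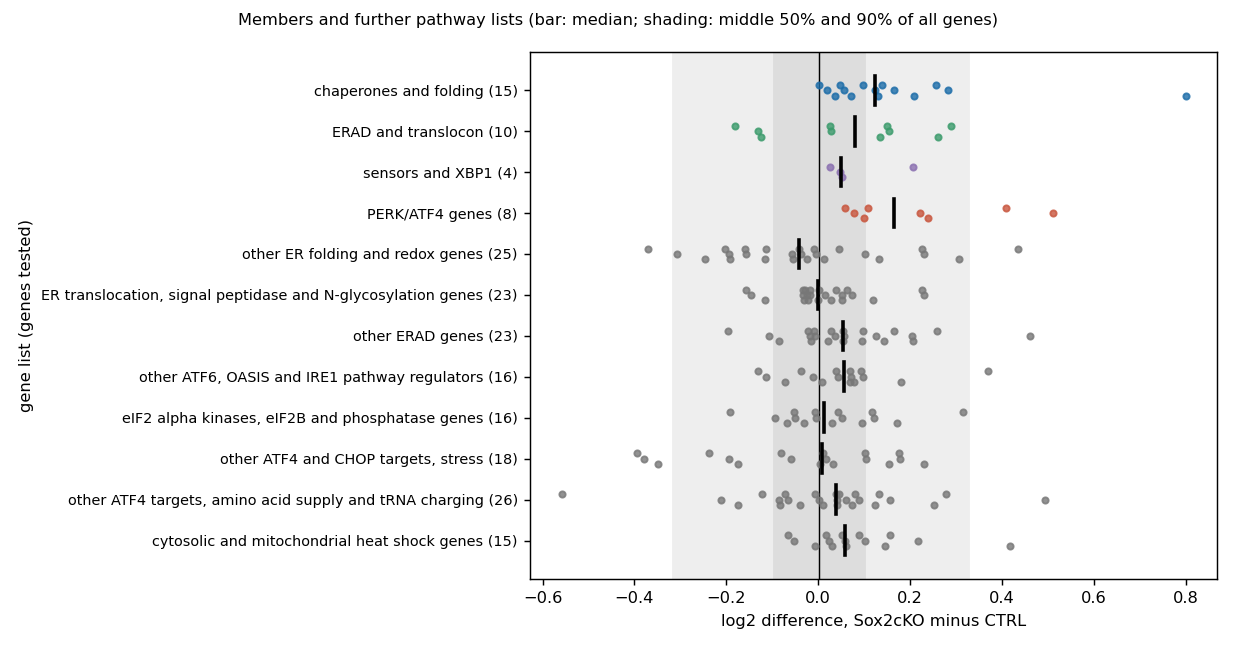
Log2 difference, Sox2cKO minus CTRL, of every tested gene of the 4 role groups (coloured) and of 8 further lists (grey), with a black bar at each list's median and shading for the middle 50% and 90% of all 13222 genes. The role groups have medians of 0.12, 0.08, 0.05 and 0.16, and the further lists lie between -0.04 and 0.06.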

How the data were processed

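The authors deposited 1 table of 45101 probe sets on 6 arrays, whose values were read as log2 signal from their range. Per the submitters' processing notes R 2.14.0 was used, and the background correction, summarising and normalization are not given in the sources used here. Array medians of 5.42 to 5.46 show a common scale, so a shift shared by most genes would not be seen. Probe sets were named from the platform annotation, and 34945 had 1 gene. Those with at least 3 arrays above that array's 40th percentile were kept, 1 per gene by the highest mean, giving 13222 genes. Sox2cKO minus CTRL was tested with limma 3.58.1 in R 4.3.3 (lmFit, eBayes, two-sided, Benjamini-Hochberg over all genes, threshold 0.05), and every p and adjusted p is from this test. The procedure was tested on simulated data. The number of arrays limits the precision, and as the labels do not say that replicates are separate animals, p-values measure the spread between these samples.

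Members and lists were chosen with earlier results of these data known. Values on every array are given for the 3 smallest unadjusted p per role group and for Hspa5, Dnajb9, Xbp1, Atf6, Ern1, Eif2ak3, Atf4, Ddit3, Trib3 and Asns. Up to 3 genes of smallest p are named per further list, and Calr and Chac1 were added after their values were seen. Of 252 list entries, 11 had no probe set with 1 gene, and 9 were matched through RefSeq synonyms. Arrays of the same replicate number deviated together (correlations of 0.206 to 0.288 across genes, against -0.333 to 0.064 otherwise), so a replicate block was run as an alternative, beside leaving out each array, other filters, probe set averaging, quantile normalization, 16 added on the linear scale, a sex covariate and an intensity trend.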

Additional observations from a re-analysis of the deposited data

How the results depend on the processing

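With the replicate number as a block, 0 members and 0 genes passed the adjusted threshold, as without it, and the lowest adjusted p of a member was 0.782 (Dnajb9). The block changed no call at that threshold. Before adjustment 656 genes had a limma p under 0.05 with the block, against 354 without it, with 2 members in each fit. The intervals given for members are from the fit without the block. Leaving out each array gave 0 members past the threshold each time and 0 to 5 genes, the 5 being Sox2 and the sex-linked Eif2s3y, Uty, Xist and Kdm5d without CTRL replicate 1, where Sox2 differed by -4.27 and Dnajb9 had its lowest adjusted p over the alternatives (0.462). The sex covariate, which sets Sox2cKO against CTRL replicate 1 alone, gave 1 gene, Ostf1, and no member. Over the 6 arrays left out in turn, the medians ranged from -0.0099 to 0.19 for chaperones and folding factors, 0.03 to 0.12 for ERAD and translocon genes, 0.0051 to 0.08 for sensors and XBP1 and 0.11 to 0.31 for PERK/ATF4 genes, and 5 to 9 members had groups apart. A smaller group is apart from the other more easily, so these counts cannot be set beside the 4 members of all 6 arrays. The share of all genes with groups apart was not counted with an array left out. The cause of the turned signs below was not tested. With an array left out the sign turned for Hspa5 -0.060 to 0.22, Dnajb11 -0.022 to 0.12, Dnajc3 -0.11 to 0.16, Sdf2l1 -0.061 to 0.26, Pdia3 -0.00516 to 0.19, Pdia6 -0.058 to 0.082, Canx -0.052 to 0.11, Creld2 -0.15 to 0.20, Manf -0.031 to 0.23, Herpud1 -0.36 to 0.00191, Derl1 -0.075 to 0.14, Derl3 -0.073 to 0.12, Xbp1 -0.062 to 0.15, Ern1 -0.062 to 0.080, Eif2ak3 -0.11 to 0.17, Ddit3 -0.00191 to 0.12, Ddit4 -0.11 to 0.16, Sesn3 -0.23 to 0.31 and Hsph1 -0.039 to 0.29. With the sex covariate it turned for Dnajc3 (-0.061), Pdia3 (-0.00586), Herpud1 (0.17), Atf6 (-0.12), Atf4 (-0.018), Ddit4 (-0.089), Asns (-0.054), Rnf103 (-0.071), Creb3l1 (-0.042), Eif2s3x (0.019) and Gadd45a (0.043). With the mean over probe sets it turned for Pdia6 (-0.00693) and Ern1 (-0.060). With quantile normalization it turned for Pdia6 (-0.00293). The number of arrays limits what can be called.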

Other observations

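The cytosolic and mitochondrial heat shock genes, the folding machinery outside the ER, had a mean difference above 0 for 12 of 15 genes and below 0 for 3, with a median of 0.06, and 0 passed the adjusted threshold in limma. Hspa1a, the inducible cytosolic HSP70, read 11.53, 11.65 and 11.68 in Sox2cKO arrays, against 11.26, 10.80 and 11.55 in CTRL arrays, a difference of 0.42 (standard error 0.20). The groups met at CTRL replicate 3. Its near-identical neighbour Hspa1b differed by 0.16, and signal of these genes may not be fully separable. Hsph1, the cytosolic counterpart of HYOU1, differed by 0.15. The score of the 15 genes was -0.03, -0.03 and 0.18 in Sox2cKO replicates 1 to 3, against -0.0075, -0.16 and 0.04 in CTRL replicates 1 to 3, so replicate 3 was the highest array of each group, as for the ER chaperones.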
